A study of Arabidopsis thaliana with 16 samples.

Results

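HY5, HYH, the UV-B receptor gene UVR8, its repressor genes RUP1 and RUP2, and the photolyase genes PHR1 (also UVR2) and UVR3 were followed in light-grown and dark-grown Arabidopsis cells. These 7 genes were chosen by their identifiers (AT5G11260, AT3G17609, AT5G63860, AT5G52250, AT5G23730, AT1G12370 and AT3G15620) out of the 28598 genes in the count table. The choice used no cut on their values, but earlier results of these data were known when it was made. The cells were a dispersed suspension culture of the Col-0 ecotype prepared from leaves, with no transgene, kept at 23 °C on sugar (3% sucrose) and the auxin 2,4-D at 1.1 mg/L, and subcultured every 7 days. Light-grown cultures stood in constant light. Dark-grown cultures stood under the same shaking and temperature in foil-covered flasks for 2 weeks. RNAseq was performed on 4 light-grown and 4 dark-grown libraries, labelled as sampled at 16 hours. The growth and sampling text also names 5 days after subculture for light-grown cells, without saying which samples, and states that cultures were carried out in duplicate. The paper's methods state the same, whereas its results describe 4 light-grown and 4 dark-grown replicate cultures, sampled after a 16-hour passage. The p-values measure the spread between these libraries, which may be partly technical if cultures were shared. The culture is grown on sugar, no UV-B source is named for it, and this limits it as a model of a leaf in sunlight.

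HY5 and HYH are related bZIP transcription factors that bind DNA elements with an ACGT core and promote photomorphogenesis, the development of a plant in light. In the dark, a ubiquitin ligase formed by COP1 and the SPA proteins marks HY5 protein for destruction, and light slows this process. UVR8 is a receptor protein that absorbs UV-B, binds COP1 and raises HY5 and HYH transcription, while RUP1 and RUP2 return the receptor to its inactive form. Photolyases use the energy of blue and UV-A light to reverse UV damage in DNA: PHR1 acts on cyclobutane pyrimidine dimers and UVR3 on pyrimidine (6-4) photoproducts. The comparison of light with dark growth asked how the RNA of these genes follows the light regime.

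The genes lie apart in the nuclear genome. Positions are from the RefSeq annotation of TAIR10.1, whereas the authors mapped to TAIR10, and the count table itself carries no coordinates. HY5 lies on the reverse strand at chr5:3593335-3595073, UVR8 on the reverse strand at chr5:25554416-25559499, RUP1 on the forward strand at chr5:21216772-21218351 and RUP2 on the forward strand at chr5:8005097-8006630. HYH lies on the forward strand at chr3:6023844-6024710 and UVR3 on the reverse strand at chr3:5293256-5296811. PHR1 lies on the reverse strand at chr1:4206360-4208999. RUP1 and RUP2 each have 1 exon, HYH up to 3, HY5 up to 4, PHR1 up to 9, UVR8 13 and UVR3 up to 14. None of the 50-base exon windows of the 7 genes occurs elsewhere in the genome, so a 50-base read within an exon has no exact match elsewhere. Near matches and reads across exon junctions were not checked. Only PHR1 overlaps another gene: KEU, on the opposite strand, shares 127 bases with its exons. The use of strand in the counting is not given in the sources used here, so reads in that stretch cannot be assigned with certainty.

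Because HY5 binds ACGT elements, the promoter window of each gene, 250 bases before to 50 bases after the annotated gene start, was searched on both strands for related motifs. The G-box is CACGTG. The T/G-box is CACGTT, read on the opposite strand as AACGTG. Both contain the ACGT core, which was also searched alone. Of the 27635 nuclear promoters of the count table, 7.62% held a G-box, 8.92% held a T/G-box and 49.8% held the core in any context, boxes included. The stretches that hold an ACGT core in HY5, in HYH and in the photolyase genes are shown, because these are the 4 genes that changed in the comparison. Each is read 5′ to 3′ on the strand of the gene, with the motif in capitals.
HY5, T/G-box, chr5:3595068-3595091, reverse strand: aaatccaccCACGTTccaatctca
HYH, chr3:6023779-6023802, forward strand: acataaacctACGTgttcttttat
PHR1, G-box, chr1:4209028-4209051, reverse strand: acagtctgaCACGTGttgataatg
PHR1, chr1:4209004-4209027, reverse strand: taaaccatccACGTagatcaattc
UVR3, chr3:5296888-5296911, reverse strand: tatgttcaacACGTataaagatta
The HY5 core began 8 bases before the annotated start (-8), the HYH core at -55, the PHR1 cores at -42 and -18 and the UVR3 core at -90. RUP1 also held a T/G-box, with its core at -191, and RUP2 held ACGT cores at -156 and 17. No ACGT was found in the window of UVR8. These matches describe letters in the reference and no binding was measured.

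**Figure D1:**
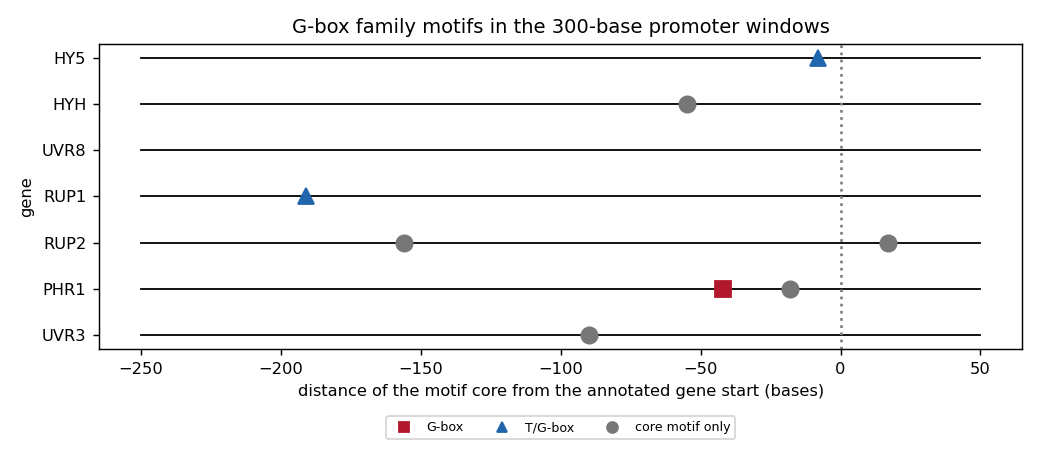
Positions of the ACGT-core motifs in the promoter windows of the 7 genes. The x axis gives the distance of the core from the annotated gene start in bases, and the rows are genes. Squares mark the G-box, triangles the T/G-box and circles an ACGT core outside these boxes. PHR1 alone of the 7 held a G-box, and UVR8 held no core.

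The libraries held 18363149 to 37813411 counts in light and 29916585 to 32688689 in the dark, and 3 counts correspond to 0.0779 to 0.159 CPM (counts scaled to a common library size with TMM factors). As a check of the growth condition, 7 genes of the light-harvesting antenna (LHCA1 to LHCA4, LHCB4.1, LHCB5 and LHCB6) were all lower in the dark. Their summed level was 261 to 414 CPM in light and 12.9 to 39.8 CPM in the dark. Light-RNA4 was the lowest of the light-grown libraries on this sum, and Dark-RNA2 the highest of the dark-grown. Without both of these libraries together, calls over all genes rose from 1912 to 4850, and values without them stand beside the calls of the lists that change. The 4 markers of dividing cells summed to 184 to 215 CPM in light and 142 to 208 CPM in the dark, and none of the 4 passed the test. They did not share a direction. Their log2 fold changes, dark against light, were 0.54 for CYCD3;1, -0.33 for CDKB1;1 and for PCNA1, and -0.70 for CYCB1;1. PCNA1 did not overlap between groups, with the dark-grown libraries below. Markers of other cell types had lower sums. Guard cell markers summed to 1.06 to 4.40 CPM in light and 2.09 to 6.77 CPM in the dark. Xylem markers summed to 1.99 to 2.74 and 1.44 to 6.35 CPM, and root hair markers to 4.82 to 5.30 and 3.72 to 9.71 CPM. These sums came almost wholly from MYB60 (guard cell), XCP1 and IRX3 (xylem) and COBL9 (root hair), each counted in every library. In the same lists, XCP2 and EXPA7 were at 0 in every library, and FAMA had 1 count in all. Of the 3 seed storage genes only OLEO1 had a count, of 1. The part of these cell types in the results was not tested.

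Of the 7 genes, 5 passed the filter on low counts and were tested. HYH, PHR1, HY5 and UVR3 were lower in the dark, PHR1 by 12.9-fold, HY5 by 1.98-fold and UVR3 by 1.54-fold in the fit, and HYH with 1098 counts in light against 4 in the dark, and no member was called higher. UVR8 did not pass the test, and RUP1 and RUP2 were too low to be tested. A gene was called where its quasi-likelihood p in edgeR, adjusted by Benjamini and Hochberg's method over 19129 genes, was under 0.05, and every edgeR adjusted p given is of this kind. Over all genes tested, 6.31% were called lower in the dark, 3.69% higher and 10.0% in either direction. In each of these 4 genes the highest dark-grown library was under the lowest light-grown one, which was so for 10.1% of all genes tested (6.50% had the dark-grown libraries above, and 16.6% did not overlap in either direction). HYH passed the filter only through its light-grown libraries, so these counts are a description of the members and not a test of them as a set. In bulk RNA, fewer expressing cells and less RNA per cell cannot be told apart.

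**Figure D2:**
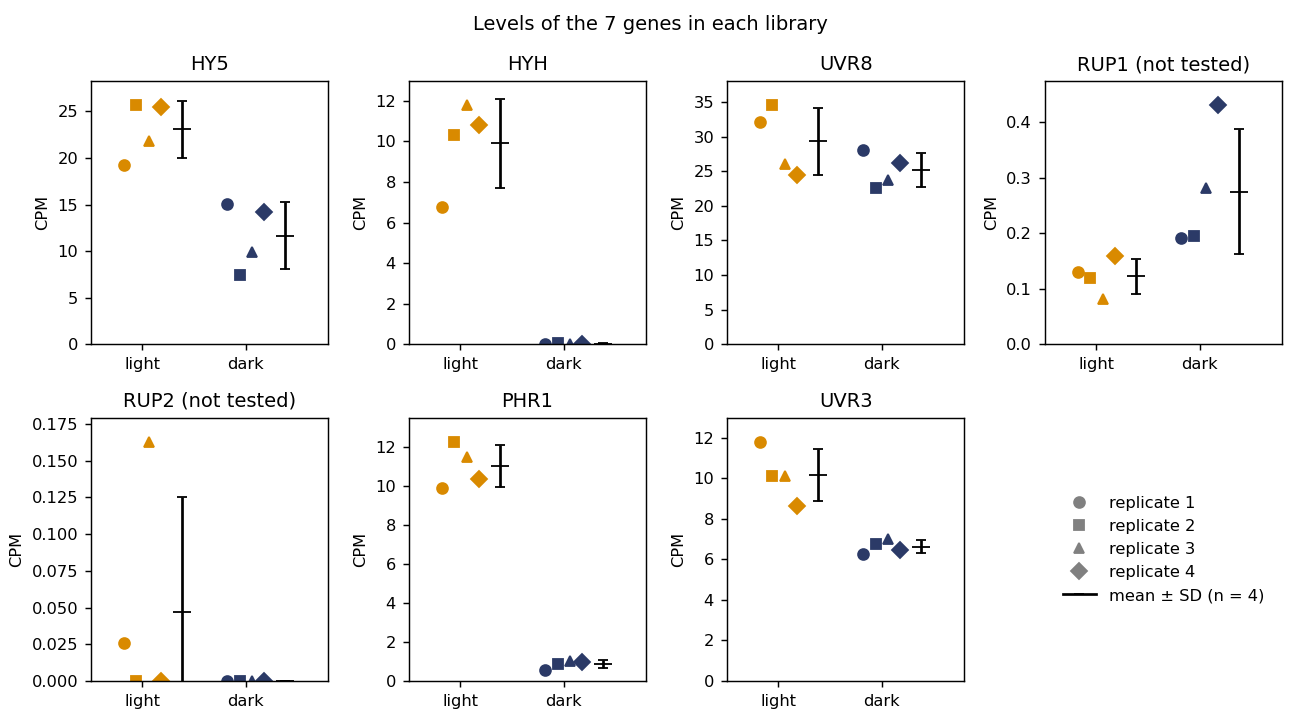
Level of each of the 7 genes in the 8 libraries. The y axis gives CPM after TMM scaling, from 0 and with its own range in each panel, points are libraries with their replicate number as symbol, and bars give the mean ± SD of 4 libraries. HYH (6.75 to 11.8 CPM in light) and PHR1 (9.92 to 12.3 CPM in light) fell to near 0 in the dark, HY5 and UVR3 fell to lower but clear levels, and the libraries of UVR8 overlapped.

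HY5, the transcription factor at the centre of the pathway, stood at 19.3, 25.7, 21.8 and 25.5 CPM in Light-RNA1 to Light-RNA4 and at 15.1, 7.42, 9.89 and 14.2 CPM in Dark-RNA1 to Dark-RNA4. The groups did not overlap, and Dark-RNA1 and Dark-RNA4 came closest to the light-grown range. Its mean was 23.1 ± 3.08 CPM in light and 11.6 ± 3.62 CPM in the dark (SD, n = 4 each). HY5 had a log2 fold change, dark against light, of -0.99 (± 0.23 SE, edgeR adjusted p = 0.0276). HY5 was thus still counted in every dark-grown library, with 228 to 475 counts. Dark-RNA2, which held the most light-harvesting RNA of the dark-grown libraries, held the least HY5. The call rests on single libraries: the adjusted p in the same edgeR test was 0.0817 without Light-RNA2, 0.0729 without Light-RNA3 and 0.0923 without Dark-RNA3. Over the fits that each leave out 1 library, the log2 fold change ran from -1.13 to -0.82.

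HYH, the nearest relative of HY5, stood at 6.75, 10.3, 11.8 and 10.8 CPM in the light-grown libraries and at 0, 0.0651, 0.0314 and 0.0331 CPM in the dark-grown libraries. The dark values are 0, 2, 1 and 1 counts, against 260, 347, 288 and 203 counts in light. All 4 dark-grown libraries were thus below the level that 3 counts can show. Pooled over libraries, 1098 counts in light and 4 in the dark give a ratio of 295 (exact 95% interval 115 to 1090, counting error only). The log2 fold change was -8.09 (± 0.46 SE, edgeR adjusted p = 7.9e-05), and HYH ranked at 14 from the most negative of the 19129 genes tested. With each library left out it stayed between -8.59 and -7.71.

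The bZIP genes of the pair did not change equally. The log2 ratio of HYH to HY5 within a library, on CPM plus 0.5, was -1.45, -1.28, -0.86 and -1.21 in the light-grown libraries. In the dark-grown libraries it was -4.96, -3.81, -4.29 and -4.78. The mean ratio moved from -1.20 ± 0.25 (SD, n = 4) to -4.46 ± 0.52 (SD, n = 4), a difference of -3.26 (p = 0.029 by exact permutation, two-sided, which is the lower limit for 4 libraries against 4, and adjusted p = 0.029 over the 3 ratios compared). The groups did not overlap. The size of the difference depends on the value added to the CPM, since HYH was near 0 in the dark: it was -1.62 with 2 added and -6.31 on raw counts plus 1.

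**Figure D3:**
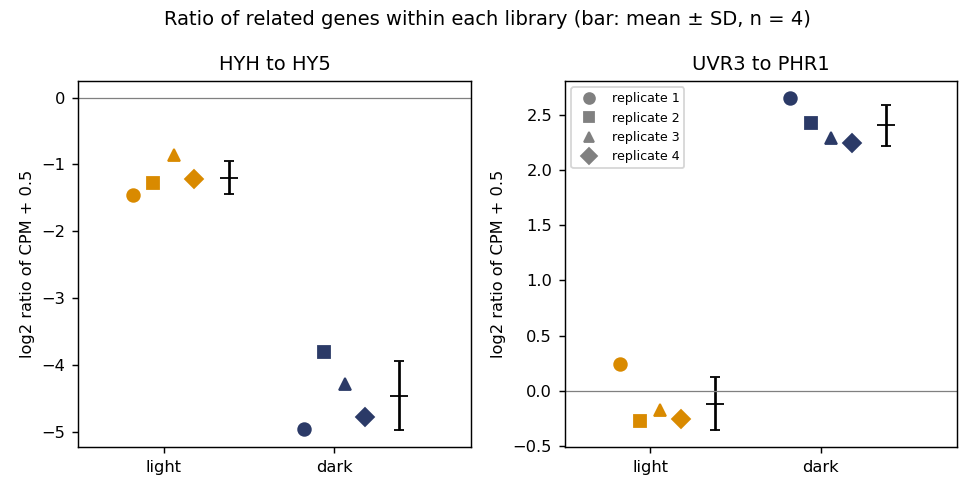
Log2 ratio of HYH to HY5 and of UVR3 to PHR1 within each library, on CPM plus 0.5. Points are the 4 light-grown and 4 dark-grown libraries with their replicate number as symbol, and bars give the mean ± SD. The first ratio fell from -1.20 to -4.46 and the second rose from -0.12 to 2.41, with no overlap between the groups in either.

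UVR8, the UV-B receptor gene, stood at 32.2, 34.6, 26.0 and 24.5 CPM in light and at 28.1, 22.6, 23.8 and 26.2 CPM in the dark. The groups overlapped. Its mean was 29.3 ± 4.84 CPM in light and 25.2 ± 2.47 CPM in the dark (SD, n = 4 each), with a log2 fold change of -0.22 (± 0.14 SE, edgeR adjusted p = 0.359). Its spread within the light-grown group was larger than the difference between the group means. With each library left out, its log2 fold change stayed between -0.30 and -0.13, and the adjusted p in the same edgeR test between 0.175 and 0.684.

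RUP1 and RUP2, whose proteins bind UVR8 and switch it off, were close to the limit of detection in both conditions. RUP1 held 5, 4, 2 and 3 counts in light and 6, 6, 9 and 13 counts in the dark, or 0.130, 0.119, 0.0817 and 0.159 CPM against 0.191, 0.195, 0.282 and 0.431 CPM. The lowest dark-grown value was above the highest light-grown value (p = 0.029 by exact permutation, two-sided, again the lower limit, a test chosen after the values were seen). Pooled over libraries, 14 counts in light against 34 in the dark give a ratio of light to dark of 0.443 (exact 95% interval 0.220 to 0.847, counting error only). In a fit without the filter on low counts, the log2 fold change of RUP1 was 1.15 (± 0.54 SE, edgeR adjusted p = 0.249). The direction of RUP1 is opposite to that of the 4 members called, but it is not called itself. RUP2 held 1, 0, 4 and 0 counts in light and none in the dark, so a difference was not detectable at this depth. The ratio of RUP1 to RUP2 was computed as the third ratio, and rests on so few counts that it is not interpreted.

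PHR1, the photolyase for cyclobutane pyrimidine dimers, stood at 9.92, 12.3, 11.5 and 10.4 CPM in light and at 0.572, 0.846, 1.04 and 0.961 CPM in the dark. The groups lay far apart and each was tight, with 11.1 ± 1.08 CPM in light and 0.854 ± 0.203 CPM in the dark (SD, n = 4 each). The dark values rest on 18, 26, 33 and 29 counts. The log2 fold change was -3.69 (± 0.22 SE, edgeR adjusted p = 9.27e-05), and from -3.79 to -3.54 with each library left out. PHR1 ranked at 197 from the most negative of all genes tested. KEU, the gene that overlaps its 3′ end on the opposite strand, stood at 51.2 ± 4.56 CPM in light and 56.7 ± 5.16 CPM in the dark (SD, n = 4 each), and how many of the dark counts of PHR1 are reads of KEU was not tested.

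UVR3, the photolyase for (6-4) photoproducts, stood at 11.8, 10.1, 10.1 and 8.64 CPM in light and at 6.26, 6.74, 7.00 and 6.46 CPM in the dark. The groups did not overlap, and the dark-grown libraries were the more alike. The mean fell from 10.2 ± 1.30 CPM (SD, n = 4) to 6.61 ± 0.323 CPM (SD, n = 4). The log2 fold change was -0.62 (± 0.13 SE, edgeR adjusted p = 0.0201). This call also rests on single libraries: in the same edgeR test the adjusted p was 0.0657 without Light-RNA1, 0.0598 without Light-RNA2, 0.0642 without Light-RNA3, 0.0534 without Dark-RNA3 and 0.0616 without Dark-RNA4. Its log2 fold change stayed between -0.69 and -0.54.

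In light the photolyase genes were close to each other in CPM, whereas in the dark UVR3 was the higher. Per kilobase of exon, PHR1 was above UVR3 in light (5.55 to 6.89 against 3.78 to 5.16 CPM per kb) and below it in the dark. The log2 ratio of UVR3 to PHR1, on CPM plus 0.5, was 0.24, -0.28, -0.18 and -0.26 in the light-grown libraries and 2.66, 2.43, 2.29 and 2.25 in the dark-grown libraries. The mean ratio rose from -0.12 ± 0.24 in light to 2.41 ± 0.18 in the dark (SD, n = 4 each), a difference of 2.52 (p = 0.029 by exact permutation, two-sided, the lower limit of this design, adjusted p = 0.029 over the 3 ratios). The difference was 1.70 with 2 added to the CPM and 3.11 with nothing added.

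To compare the members with each other, CPM were divided by the annotated exon length in kilobases. In light the order was HY5 at 18.4 ± 2.45, UVR8 at 13.3 ± 2.19, HYH at 12.8 ± 2.82, PHR1 at 6.18 ± 0.605 and UVR3 at 4.45 ± 0.567 CPM per kb (SD, n = 4), with RUP1 at 0.0774 and RUP2 at 0.0309 CPM per kb. The ranges of HY5 and UVR8 overlapped, as did those of UVR8 and HYH and those of RUP1 and RUP2, and the other neighbours in this order did not. In the dark UVR8 led at 11.4 ± 1.12 CPM per kb, followed by HY5 at 9.27 ± 2.88, UVR3 at 2.89 ± 0.141 and PHR1 at 0.477 ± 0.114 CPM per kb (SD, n = 4). Below these stood RUP1 at 0.174, HYH at 0.0418 and RUP2 at 0 CPM per kb. The ranges of UVR8 and HY5 overlapped in the dark, and HYH and RUP2 both lay under the level of 3 counts. HYH thus moved from the level of UVR8 in light to below RUP1 in the dark.

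The regulators and partners of HY5 and UVR8 were described on a list of 20 genes, of which 19 were tested. There were 5 lower in the dark and none higher by the same edgeR test, where 6.31% and 3.69% of all genes tested were, and the median log2 fold change of the 19 was -0.0011, against 0.0039 over all genes tested. The 5 were SPA4, BBX25, SPA3, SPA1 and BBX24. SPA4 and BBX25 passed the filter on low counts only through their light-grown libraries, so they could only be called lower. The counts of this list are thus a description and not a test of it as a set. SPA proteins are the partners of COP1 in the ligase that acts on HY5, and BBX24 and BBX25 are B-box proteins that bind HY5 and lower its activity.

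SPA4 fell from 14.0, 13.7, 16.3 and 14.7 CPM in light to 0.0318, 0.814, 0.0628 and 0.0994 CPM in the dark, a log2 fold change of -5.85 (± 0.76 SE, edgeR adjusted p = 0.00241). Dark-RNA2 was the highest dark-grown library for SPA4, with 25 of the 31 dark counts, and without it the log2 fold change was -7.74. SPA3 fell from 8.96 ± 2.23 to 1.20 ± 0.394 CPM (SD, n = 4), and SPA1 from 54.6 ± 5.46 to 20.7 ± 3.32 CPM (SD, n = 4). SPA2, at 63.6 ± 6.28 CPM in light and 50.9 ± 2.94 CPM in the dark (SD, n = 4 each), did not overlap between groups but missed the threshold (log2 fold change -0.32, edgeR adjusted p = 0.069). COP1 itself stood at 27.1 ± 2.26 CPM in light and 23.4 ± 3.61 CPM in the dark (SD, n = 4 each), and did not pass the test (edgeR adjusted p = 0.353). The SPA genes thus differed in their log2 fold changes from -5.85 to -0.32, although differences between them were not tested.

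BBX25 stood at 4.75, 6.0, 9.52 and 3.13 CPM in light and at 0.0953, 0.0976, 0.502 and 0.0663 CPM in the dark (log2 fold change -4.90 ± 0.68 SE, edgeR adjusted p = 0.0029). Dark-RNA3 was its highest dark-grown library, and without it the log2 fold change was -6.0. BBX24 fell from 14.0 ± 2.70 to 6.23 ± 0.255 CPM (SD, n = 4; log2 fold change -1.17, edgeR adjusted p = 0.00218). BBX21 and BBX22, B-box proteins that promote HY5 activity, did not pass the test, with log2 fold changes of 0.25 and -0.30. DET1, CUL4, DDB1A and DDB1B, parts of the degradation machinery around COP1, had log2 fold changes from 0.04 to 0.10 and did not pass the test either. WRKY36, a repressor of HY5 transcription, named after its values were seen, stood at 15.7, 7.93, 16.8 and 29.9 CPM in light and at 45.6, 28.8, 35.1 and 32.5 CPM in the dark. Only Light-RNA4 overlapped the dark-grown range, and the log2 fold change of 1.02 was not called (± 0.35 SE, edgeR adjusted p = 0.114). WRKY36 and BIM1 were called without Light-RNA4, beside 2738 calls over all genes. They were also called without Light-RNA4 and Dark-RNA2 together, where the list gave 7 calls beside 4850 over all genes. With DESeq2, 8 genes of the list passed, the added ones being SPA2, WRKY36 and BIM1. Over all genes DESeq2 called 3197, against 1912 in edgeR.

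**Figure D4:**
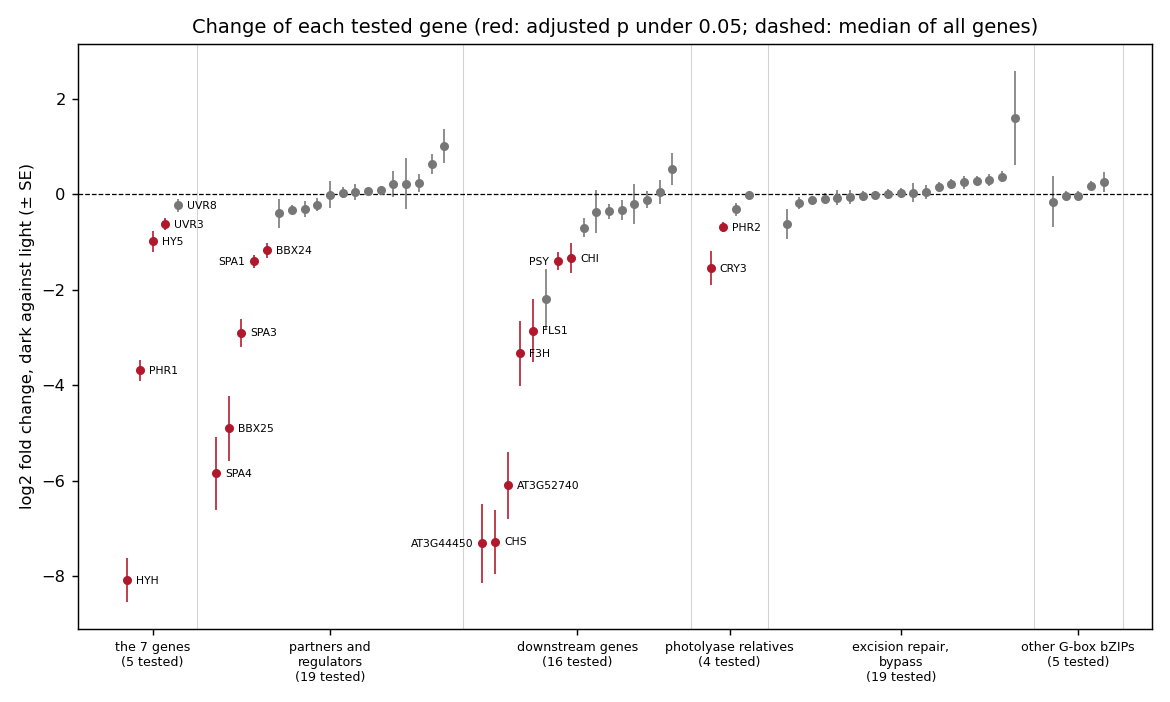
Log2 fold change in the dark against light, with its standard error, for each tested gene of the 7 members and of 5 lists, ordered within a list. Red points have an adjusted p under 0.05 in edgeR, and the dashed line is the median of all genes tested, 0.0039. HYH lies at -8.09, 5 partners and 7 downstream genes are red and negative, and all 19 genes of excision repair and bypass are grey.

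Genes taken as downstream of HY5 and UVR8 in light and UV-B signalling formed a list of 23, of which 16 were tested. Whether each of them is raised or lowered through HY5 was not checked. There were 7 lower in the dark and none higher, where 6.31% and 3.69% of all genes tested were called, and 14 of the 16 had a negative log2 fold change, with a median of -1.02 against 0.0039 over all genes tested. Without Light-RNA4 and Dark-RNA2 the same test called 13 genes of this list, including ELIP1, ELIP2 and MYB111, which then passed the filter, beside the 4850 calls over all genes. With each library left out it called from 4 to 11, the fewest without Light-RNA3 and the most without Light-RNA4. The 7 were the flavonoid genes CHS (TT4), CHI (TT5), F3H and FLS1, the carotenoid gene PSY, and AT3G52740 and AT3G44450, for which the reference gives no name. CHS, F3H, FLS1, AT3G52740 and AT3G44450 passed the filter only through their light-grown libraries, so they could only be called lower. The counts and the median of this list are thus a description and not a test of it as a set.

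CHS encodes chalcone synthase, the entry enzyme of flavonoid synthesis and a classic HY5 target. It stood at 5.17, 5.91, 3.84 and 2.65 CPM in light and had 1, 2, 0 and 0 counts in the dark. Pooled, 542 counts against 3 give a ratio of 194 (exact 95% interval 66.1 to 945, counting error only), and the log2 fold change was -7.28 (± 0.67 SE, edgeR adjusted p = 0.000401). Without Dark-RNA2 the log2 fold change was -8.21, and without Light-RNA4 as well -8.41. The following enzymes had smaller log2 fold changes, although differences from CHS were not tested. CHI, chalcone isomerase, fell from 8.55 ± 1.14 to 3.37 ± 1.59 CPM (log2 fold change -1.34), F3H, flavanone 3-hydroxylase, from 1.97 ± 1.48 to 0.195 ± 0.0995 CPM (log2 fold change -3.33), and FLS1, flavonol synthase, from 0.909 ± 0.196 to 0.123 ± 0.140 CPM (log2 fold change -2.85). Their edgeR adjusted p-values were 0.0291, 0.0176 and 0.027. Leaving out single libraries took each of these 3 past the threshold: CHI reached at most 0.0871 and lost the call without Light-RNA1, Light-RNA2, Light-RNA3, Dark-RNA2, Dark-RNA3 or Dark-RNA4, FLS1 reached at most 0.0901 and lost it without Light-RNA1, Light-RNA2, Light-RNA3, Dark-RNA1 or Dark-RNA3, and F3H reached at most 0.0598 and lost it without Light-RNA3 or Dark-RNA3 (edgeR adjusted p). The log2 fold change of FLS1 was -3.99 without Dark-RNA4 and that of F3H -2.72 without Light-RNA2. TT7, flavonoid 3'-hydroxylase, named after its values were seen, stood at 13.5, 13.8, 16.4 and 8.95 CPM in light and at 1.87, 7.39, 1.44 and 0.861 CPM in the dark. Its groups did not overlap, Dark-RNA2 was the highest dark-grown library, and it missed the threshold (log2 fold change -2.19 ± 0.62 SE, edgeR adjusted p = 0.0634). It was called without Dark-RNA2, without Light-RNA4 and Dark-RNA2 together, and in DESeq2.

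PSY, phytoene synthase, the entry enzyme of carotenoid synthesis, stood at 29.0, 28.5, 31.8 and 24.3 CPM in light and at 9.85, 15.1, 9.01 and 9.11 CPM in the dark (log2 fold change -1.40 ± 0.19 SE, edgeR adjusted p = 0.00243). Dark-RNA2 was the highest of the dark-grown libraries. AT3G44450 held 25, 30, 16 and 8 counts in light and 0 in every dark-grown library, which puts its dark level at least 28.3-fold lower than in light against a floor of 3 counts over the group. AT3G52740 held 35, 25, 19 and 17 counts in light and 1, 0, 0 and 0 in the dark, a pooled ratio of 103 (exact 95% interval 18.1 to 4120, counting error only), and without Dark-RNA1 its log2 fold change moved from -6.10 to -7.64.

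ELIP1 and ELIP2, early light-induced proteins of the thylakoid, and MYB111, an activator of flavonol genes, fell below the filter because Light-RNA4 held only 5 counts of each. They are named after their values were seen. ELIP1 stood at 9.63, 6.33, 5.07 and 0.265 CPM in light with 3 counts in all dark-grown libraries, ELIP2 at 1.17, 1.34, 1.23 and 0.265 CPM with none in the dark, and MYB111 at 1.32, 1.37, 0.858 and 0.265 CPM with 3. Fitted without the filter, they had edgeR adjusted p-values of 0.00791, 0.00756 and 0.00791. Of the remaining downstream genes, MYB75, an anthocyanin regulator, and DFR, an anthocyanin enzyme, were at 0 in every library. SIG5 (SIGE), GPX7 and the phytochrome A transport genes FHY1 and FHL did not pass the test, with log2 fold changes of -0.33, -0.70, -0.36 and -0.36. The nitrate transporter gene NRT2.1 had a positive value of 0.53 and did not pass either.

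**Figure D5:**
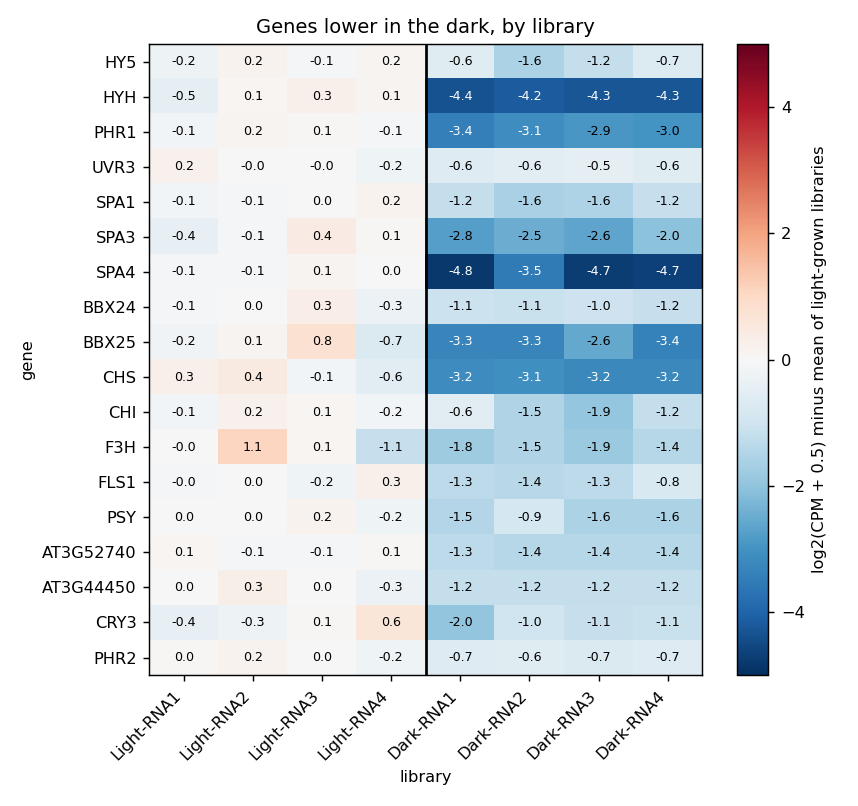
Each gene lower in the dark among the 7 members, the partners, the downstream genes and the photolyase relatives, by library. Cells give log2 of CPM plus 0.5 minus the mean of the 4 light-grown libraries, blue being lower. HYH (0 to 0.0651 CPM in the dark) and SPA4 have the darkest blue cells, UVR3 and PHR2 the palest, and SPA4 and PSY are highest in Dark-RNA2 among the dark-grown libraries.

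Photolyase relatives were described on a list of 4 genes, all tested. There were 2 lower in the dark and none higher, where 6.31% and 3.69% of all genes tested were called. CRY3, a cryptochrome of organelles with photolyase activity, stood at 3.50, 3.95, 5.11 and 7.63 CPM in light and at 0.858, 2.15, 1.91 and 1.99 CPM in the dark (log2 fold change -1.54 ± 0.36 SE, edgeR adjusted p = 0.0292). Its groups did not overlap, and it lost the call in the same edgeR test without Light-RNA2 (adjusted p = 0.0519), Light-RNA3 (0.083), Dark-RNA3 (0.076) or Dark-RNA4 (0.0673). PHR2, named for its likeness to photolyases, stood at 28.0, 30.4, 27.7 and 23.0 CPM in light and at 17.1, 17.6, 16.4 and 17.0 CPM in the dark (log2 fold change -0.68 ± 0.11 SE, edgeR adjusted p = 0.00484). The blue-light receptor genes CRY1 and CRY2 did not pass the test, with log2 fold changes of -0.31 and -0.0083.

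Repair that needs no light was described on 19 genes of nucleotide excision repair and damage bypass, all tested. None passed the threshold in edgeR, 3 had an unadjusted p under 0.05 (UVH3, RAD4 and REV3, all with positive log2 fold changes), and DESeq2 called 1, REV3. Over all genes tested, 10.0% passed the threshold and 25.2% had an unadjusted p under 0.05 in edgeR, and DESeq2 called 3197. The list of 19 is too short to tell its 0 and 3 from these shares. In UVH1 and REV3 every dark-grown library was above every light-grown one, as in 6.50% of all genes tested, and 0 of the 19 had them below (10.1% of all genes tested). Their median log2 fold change was 0.030 and their range -0.61 to 1.60, and their difference from PHR1 and UVR3 was not tested. The largest value belonged to CEN2, a centrin of damage recognition, which held 5, 4, 3 and 29 counts in light and 45, 7, 59 and 58 in the dark. Light-RNA4 was high and Dark-RNA2 low for CEN2, against their groups. DDB2, a damage recognition protein, stood at 12.4, 16.3, 15.9 and 17.1 CPM in light and at 5.50, 6.83, 13.3 and 14.6 CPM in the dark, with overlapping groups. REV3, the catalytic subunit of a bypass polymerase, was called without Light-RNA4, together with CEN2, beside 2738 calls over all genes. Without Light-RNA4 and Dark-RNA2 the count was 3, with UVH3 added, beside 4850 calls over all genes.

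Other bZIP factors that bind G-boxes gave a list of 5 (GBF1, GBF2, GBF3, bZIP16 and bZIP68). None passed the threshold in edgeR or in DESeq2, and none had an unadjusted p under 0.05 in edgeR. Among all genes tested, 10.0% passed the edgeR threshold and 25.2% had an unadjusted p under 0.05. A list of 5 is too short to tell 0 from these shares. Their log2 fold changes ran from -0.16 to 0.26. GBF3, at the lower end, stood at 1.45, 1.19, 1.59 and 5.19 CPM in light and at 2.32, 1.01, 2.29 and 2.75 CPM in the dark, and without Light-RNA4 and Dark-RNA2 its direction turned to higher in the dark, with an unadjusted p under 0.05 but no call in edgeR. GBF1 stood at 28.8 ± 1.27 CPM in light and 32.6 ± 3.89 CPM in the dark (SD, n = 4 each), and bZIP68 at 29.9 ± 2.17 and 29.4 ± 2.62 CPM (SD, n = 4).

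The genes with the most similar profile to each called member were found over the 8 libraries, by the root mean square difference of log2 of CPM plus 0.5 centred on each gene's mean. For HY5 they were AT2G12400, RPT2 and CXE12, at differences of 0.172 to 0.174. For HYH they were AT3G53960, FNR2 and AT3G57020, at 0.191 to 0.273. For PHR1 they were PRXQ, AT1G72030 and AT2G16365, at 0.211 to 0.235, and for UVR3 AT5G17460, APE1 and SPS1, at 0.0595 to 0.0757. Each difference is over 8 libraries that share their depth and scaling, and is a description. The 0.5 added to the CPM compresses values near 0, so genes near in profile can differ in log2 fold change. The genes near HYH (-8.09) had -6.88, -7.22 and -10.92, and those near PHR1 (-3.69) had -3.162, -5.308 and -3.195, in the order named. AT5G17460, the nearest to UVR3, was not called itself (edgeR adjusted p = 0.0774).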

How the data were processed

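Reads of 50 bases from both ends of fragments were aligned by the authors with TopHat2 (genome TAIR10, annotation Araport11), gene boundaries were taken from primary isoforms found with Cufflinks, and HTSeq gave the reads per gene. The authors deposited these counts without normalization or pooling. Versions, counting mode and strand setting are not given in the sources used here. A second deposited table holds the authors' own edgeR comparison (log2 fold change, mean log2 CPM, p and FDR per gene) and was not used. The 8 MNase-seq libraries were not analysed here.

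For the test, edgeR 4.0.16 under R 4.3.3 was run on the counts (TMM scaling, filterByExpr with a minimum count of 10 and a minimum total of 15, robust quasi-likelihood fit, Benjamini-Hochberg adjustment over 19129 genes, threshold 0.05), 4 dark-grown against 4 light-grown libraries. A negative log2 fold change means lower in the dark, and its SE was taken as its size over the square root of F. Alternatives were DESeq2 1.42.0, other scalings and filters, the likelihood ratio test, a replicate block and libraries left out. On simulated counts of the same libraries (dark against light, 19129 genes), the fit recovered 47 of 100 genes changed by 1 and 85 of 100 changed by 2 on the log2 scale. Within-library ratios used CPM plus 0.5 and exact permutation tests (scipy 1.17.1, Python 3.11.15). Intervals and floors cover counting error only, with 3 counts as the floor.

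Libraries of a group differed by 23.8 to 135 times the counting variance, so none was the same library counted again. Whether libraries came from separate cultures cannot be told from this, since preparations of the same culture can also differ by more than counting noise. Of the identifiers, 27636 matched the TAIR10.1 annotation, which gave positions, exon lengths and promoter windows. The genes named are the 7 members, in each list the called genes, up to 10 by size, and the 3 nearest profiles of each called member. Others are named after their values were seen. The members and lists were chosen with earlier results of these data known. The test of RUP1 alone was added after its values were seen.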

Additional observations from a re-analysis of the deposited data

Results flagged for a closer look

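In 48 groups of 4 libraries (21 named genes and 3 ratios, light-grown and dark-grown), a value was looked for that stood well apart from the remaining 3 of its group. There were 6 such cases. About 2.4 would be found if the values were independent and normally distributed. That does not hold here, since the genes share libraries and several cases rest on few counts, so the 6 cannot be read against the 2.4. Dark-RNA2 stood at 0.814 CPM for SPA4 (25 counts), with the other dark-grown libraries between 0.0318 and 0.0994, and at 15.1 CPM for PSY, with the others between 9.01 and 9.85. Both genes kept their call without this library. Dark-RNA3 stood at 0.502 CPM for BBX25 (16 counts), with the others between 0.0663 and 0.0976. Dark-RNA4 stood at 0.331 CPM for FLS1 (10 counts), with the others between 0.0325 and 0.0635. Light-RNA3 stood at 0.163 CPM for RUP2 (4 counts), with the others between 0 and 0.026. Dark-RNA1 stood at 0.0318 CPM for AT3G52740, which is 1 count, with the others at 0.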

How the results depend on the processing

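HYH and PHR1 were called lower in the dark under all 17 alternatives, HY5 under 14 and UVR3 under 12, and UVR8 was called under none. The exceptions for HY5 and UVR3 were all fits with 1 library left out, where 2 to 4 members were called. With each library left out, log2 fold changes ran from -1.13 to -0.82 for HY5, from -8.59 to -7.71 for HYH, from -0.30 to -0.13 for UVR8, from -3.79 to -3.54 for PHR1 and from -0.69 to -0.54 for UVR3. Of the 5 members tested and the 14 called genes outside them, none changed direction, while other named genes were not followed in this way, and GBF3 turned from lower to higher without Light-RNA4 and Dark-RNA2. Of 236 values of the 14 genes, 219 stayed on their side of the threshold and 17 lost the call, all with 1 library left out. Over all genes, 1912 were called (4820 at an unadjusted p under 0.05), 3197 with DESeq2, 962 to 2873 with 1 library left out and 4850 without Light-RNA4 and Dark-RNA2, and the cause was not tested. The partners gave 8 calls with DESeq2, 7 without both libraries and 5 to 7 with 1 library left out. The downstream genes gave 9 calls with DESeq2, 13 without both libraries and 4 to 11 with 1 left out, the relatives of photolyases 1 to 2, and excision repair and bypass 1 with DESeq2, 3 without both libraries and 0 to 2 with 1 left out.

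Same-numbered libraries deviated together with correlations of -0.144, 0.582, -0.0248 and 0.219 for replicates 1 to 4, so the numbers were not taken as pairs. A replicate block in the edgeR model gave 2221 calls, 1607 of them shared with the test without it, the same 4 members passed, the partners gave 6 calls (BIM1 added), the downstream genes 8 (TT7 added), and excision repair and bypass 1 (REV3). For the ratios, a replicate block left the differences at -3.26 (HYH to HY5), 0.43 (RUP1 to RUP2) and 2.52 (UVR3 to PHR1) with p = 0.125 each in an exact sign-flip test, the smallest that 4 pairs allow. Leaving out 1 library gave -3.48 to -3.10, 0.30 to 0.50 and 2.44 to 2.64, in designs too small to reach the threshold. Ratios with HYH or RUP2 have no value without a pseudocount, since some libraries held 0 counts. Other scalings moved the median of all genes by at most 0.034 on the log2 scale in size. Depth limits RUP1, RUP2 and the dark level of HYH.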
